A study of Ovis aries with 27 samples.

Results

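The 8 apoptosis genes described here were BCL2, BCL2L1 and MCL1, which favour cell survival, BAX, BAD and ENDOG, which favour cell death, and the death receptors FAS and TNFRSF1A. They were found by gene name or RefSeq accession among the probes of a sheep expression array and make up 8 of the 842 genes that could be named on it and 14 of its 15008 probes. Heart septum was taken from 27 sheep fetuses, 1 array each, in 4 groups. The cortisol 140 d group held 7 fetuses of ewes infused with cortisol at 1 mg/kg per day for about 25 d. The control 140 d group held 8 fetuses of 7 ewes given vehicle over the same period, 1 of which carried twins that the labels do not identify. The cortisol 130 d group held 6 fetuses whose ewes received the same dose for 10 d, and the control 130 d group held 6 fetuses of ewes given vehicle for 10 d. Fetuses were sampled at 139 to 144 d of gestation, near term, or at 129 to 131 d. The steroid went to the ewe, so the dose that reached the fetal heart is not given. One label puts the start of infusion near day 115 for every ewe, whereas the design places it near day 120 for the younger cohort. Age, cohort and length of infusion changed together and cannot be told apart. The p-values treat every fetus as independent, which the twins were not.

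In cells of human and mouse, where these roles were worked out, apoptosis is set off by a mitochondrial and a receptor route. BCL2, BCL2L1 (also called BCL-XL) and MCL1 keep the outer mitochondrial membrane closed by holding their pro-death relatives. BAX opens pores in that membrane, BAD releases BAX and its kin by occupying BCL2 and BCL-XL, and ENDOG is a nuclease of the mitochondria that can cut nuclear DNA once it leaves the organelle. FAS and TNFRSF1A, the receptors of FAS ligand and of tumour necrosis factor, carry death domains that recruit caspase-activating adaptors. Many of these genes are regulated at the protein level, which an array does not read.

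Of the members, 6 genes had 2 probes and 2 genes, ENDOG and TNFRSF1A, had 1. Probes were 60 bases long. In 4 genes the pair of probes overlapped almost wholly, so their agreement repeats 1 measurement. The ENDOG probe and the overlapping pairs of BCL2L1, BCL2 and BAX are shown, because the age results turn on the first 2 genes and the pairs show how little each repeat adds. Capitals mark the bases that both probes of a gene hold, 56 in BCL2L1, 58 in BCL2 and 59 in BAX, and the ENDOG probe has no partner.
ENDOG: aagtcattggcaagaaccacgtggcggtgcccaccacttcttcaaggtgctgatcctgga
BCL2L1, shown probe: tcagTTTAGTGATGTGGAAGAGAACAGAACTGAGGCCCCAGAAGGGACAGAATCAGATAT
BCL2L1, other probe: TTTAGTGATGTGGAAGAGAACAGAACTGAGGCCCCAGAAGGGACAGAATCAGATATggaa
BCL2, shown probe: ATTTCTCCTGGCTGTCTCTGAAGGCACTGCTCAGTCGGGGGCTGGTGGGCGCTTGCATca
BCL2, other probe: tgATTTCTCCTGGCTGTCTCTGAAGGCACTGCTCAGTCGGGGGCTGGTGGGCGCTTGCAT
BAX, shown probe: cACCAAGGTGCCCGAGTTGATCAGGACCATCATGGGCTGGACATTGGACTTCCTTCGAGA
BAX, other probe: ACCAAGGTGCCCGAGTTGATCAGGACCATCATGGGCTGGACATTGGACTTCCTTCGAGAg

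The BAD pair overlapped over 59 bases, whereas the probes of MCL1 and of FAS lay apart. Each gene is given below by the brighter of its probes on average. Levels are log2 intensity relative to the 75th percentile of the same array, so 0 is the intensity that 75% of probes do not exceed. Levels of different genes are not set against each other, because probes differ in brightness. All 14 probes passed the filter of being well above background on at least 6 arrays. The shown probe of every member was well above background on all 27 arrays, and the other FAS probe was so on 6 of 7 cortisol 140 d arrays and 7 of 8 control 140 d arrays. Over the 27 arrays the pairs correlated with Pearson's r of 0.972 for BCL2L1, 0.950 for BCL2, 0.920 for FAS, 0.887 for MCL1, 0.860 for BAD and 0.841 for BAX.

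Between 77.0% and 87.0% of spots on an array were well above background and 0 were saturated. The number of arrays limits the precision. The 75th percentile of intensity was 602 to 1079 on cortisol 140 d arrays, 757 to 954 on control 140 d arrays, 977 to 1195 on cortisol 130 d arrays and 977 to 1273 on control 130 d arrays, so the scaling differed with age. The arrays of cortisol 140 d replicate 4 and control 140 d replicate 1 gave the outlying values of the genes below, and the larger shifts without them are given beside the results. MB, the oxygen store of muscle, was the only one of 15 listed heart muscle markers found among the named probes. It was well above background on all 27 arrays. Only 1357 of the 15008 probes could be named, so a gene not found among them may still be on the array.

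The members rose with age or did not pass the test, and no fall passed it. Under some alternatives given below, a fall of BCL2 or of TNFRSF1A passed in the control arm. ENDOG and BCL2L1 were higher at 140 d than at 130 d in both the cortisol and the control arm, and MCL1 was higher at 140 d in the cortisol arm. Of the 8 members, 3 rose and 0 fell in the cortisol arm, against 13.5% of the 12778 tested probes called in either direction, 4.94% higher and 8.52% lower. In the control arm 2 of 8 rose and 0 fell, against 19.1% of tested probes called, 9.77% higher and 9.35% lower. The median difference over the 8 members was 0.19 in the cortisol arm and 0.18 in the control arm on the log2 scale, beside -0.04 and -0.01 over all tested probes. Differences were positive for 4 of 8 members in the cortisol arm and 5 of 8 in the control arm. In the cortisol arm the median was 0.42 for pro-survival members, -0.22 for pro-death members and 0.35 for death receptors. In the control arm these medians were 0.29, 0.07 and -0.0016. Calls are adjusted p-values under 0.05 from limma, with the Benjamini-Hochberg adjustment over all 12778 probes. In bulk tissue, fewer cells of a type and less RNA per cell cannot be told apart.

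**Figure D1:**
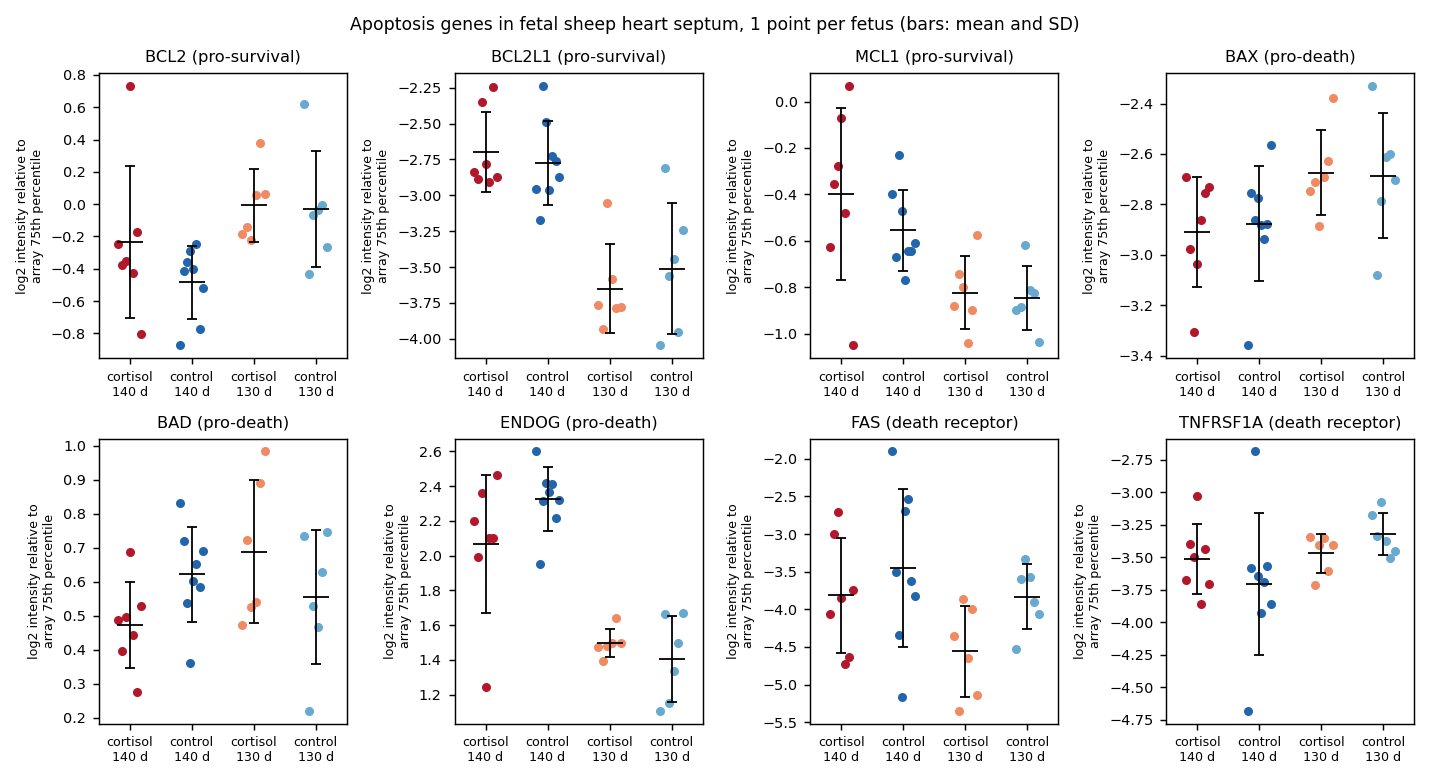
Log2 intensity relative to the array's 75th percentile for the 8 members, 1 point per fetus, with group means and SDs as bars, for the cortisol 140 d, control 140 d, cortisol 130 d and control 130 d groups from left to right. The 8 control 140 d points of ENDOG lie above all 6 control 130 d points, and the 7 cortisol 140 d points of BCL2L1 lie above all 6 cortisol 130 d points.

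Among the pro-survival members, BCL2L1 rose with age in both arms. Its levels, as lowest, median and highest fetus, were -2.91, -2.84 and -2.25 in the cortisol 140 d group, -3.17, -2.82 and -2.24 in the control 140 d group, -3.93, -3.77 and -3.06 in the cortisol 130 d group and -4.05, -3.51 and -2.81 in the control 130 d group. The cortisol groups did not overlap, and all 8 control 140 d fetuses lay above the control 130 d mean, although those groups overlapped. The rise was 1.93-fold in the cortisol arm, a log2 difference of 0.95 ± 0.18 (SE, n = 7 and 6, limma adjusted p = 0.00148). In the control arm it was 1.67-fold, a log2 difference of 0.74 ± 0.18 (SE, n = 8 and 6, limma adjusted p = 0.00592). The overlapping probe gave 0.91 and 0.71. Both calls were lost when the background was corrected with normexp instead of the scanner software, at 0.48 (adjusted p = 0.534) in the cortisol arm and 0.69 (adjusted p = 0.175) in the control arm. That correction also added 50 to every intensity, which weighs most on the dimmest probes. Whether the added 50 lost these calls was not tested. MCL1 in the cortisol arm and HSPA5 in both arms, whose probes were brighter, also lost calls there. ENDOG, also brighter, kept both of its calls.

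MCL1, a short-lived protein that holds BAK1 in check, stood at -1.05, -0.35 and 0.07 in the cortisol 140 d group, -0.77, -0.63 and -0.23 in the control 140 d group, -1.04, -0.84 and -0.58 in the cortisol 130 d group and -1.04, -0.85 and -0.62 in the control 130 d group. The 140 d groups reached higher than the 130 d groups, and all groups overlapped. In the cortisol arm MCL1 rose by 0.42 ± 0.13 on the log2 scale, 1.34-fold (limma adjusted p = 0.0321), with 6 of 7 cortisol 140 d fetuses above the cortisol 130 d mean. In the control arm the difference was 0.29 ± 0.13 (adjusted p = 0.106), with 8 of 8 fetuses above the mean of the younger group. The dimmer MCL1 probe, made from another sequence record, gave 0.33 (adjusted p = 0.220) in the cortisol arm and 0.25 (adjusted p = 0.331) in the control arm. The cortisol arm call was lost when cortisol 130 d replicate 1, 4 or 5 or cortisol 140 d replicate 2, 3, 4 or 6 was left out, at 0.35 to 0.42 with adjusted p from 0.0502 to 0.0763. It was also lost with normexp (0.37, adjusted p = 0.135), with only the cortisol groups in the fit (adjusted p = 0.110) and with the mean of both probes (0.38, adjusted p = 0.0925). The control arm difference passed the test when arrays were scaled on their medians (0.38, adjusted p = 0.0347) or slides were a fixed block (0.42, adjusted p = 0.0246).

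BCL2, the founding member of the family, did not pass the test in either arm. Its levels were -0.81, -0.35 and 0.73 in the cortisol 140 d group, -0.87, -0.41 and -0.24 in the control 140 d group, -0.22, -0.04 and 0.38 in the cortisol 130 d group and -0.43, -0.05 and 0.62 in the control 130 d group. The groups overlapped, and cortisol 140 d replicate 4 was the highest fetus of all. The age difference was -0.23 ± 0.18 in the cortisol arm (adjusted p = 0.446) and -0.45 ± 0.18 in the control arm (adjusted p = 0.0705), with 8 of 8 control 140 d fetuses under the control 130 d mean. Without cortisol 140 d replicate 4 the cortisol arm value was -0.39 (adjusted p = 0.0704). Without control 130 d replicate 2 the control arm value was -0.53 and passed the test (adjusted p = 0.0393), as did -0.40 without cortisol 140 d replicate 4 and control 140 d replicate 1 together (adjusted p = 0.0396). The control arm value also passed with array quality weights (-0.42, adjusted p = 0.0225) and with only the control groups in the fit (-0.45, adjusted p = 0.0487).

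Among the pro-death members, ENDOG was higher with age in both arms. It stood at 1.24, 2.10 and 2.46 in the cortisol 140 d group, 1.95, 2.34 and 2.60 in the control 140 d group, 1.40, 1.49 and 1.64 in the cortisol 130 d group and 1.11, 1.42 and 1.67 in the control 130 d group. Cortisol 140 d replicate 4 lay under every cortisol 130 d fetus, whereas all control 140 d fetuses lay above all control 130 d fetuses. The rise was 1.48-fold in the cortisol arm, a log2 difference of 0.57 ± 0.14 (SE, n = 7 and 6, limma adjusted p = 0.00991), and 0.71 without replicate 4 (adjusted p = 0.000192). In the control arm it was 1.89-fold, 0.92 ± 0.14 (SE, n = 8 and 6, limma adjusted p = 0.000178). ENDOG has 1 probe, so no other probe bears on it.

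BAX had levels of -3.31, -2.86 and -2.69 in the cortisol 140 d group, -3.36, -2.87 and -2.56 in the control 140 d group, -2.89, -2.70 and -2.38 in the cortisol 130 d group and -3.08, -2.66 and -2.33 in the control 130 d group. The 140 d groups sat lower on the whole, with much overlap. The age difference was -0.23 ± 0.12 in the cortisol arm (adjusted p = 0.221), with 7 of 7 fetuses under the mean of the younger group, and -0.19 ± 0.12 in the control arm (adjusted p = 0.277). The other probe, which shares 59 bases with it, gave -0.16 (adjusted p = 0.467) in the cortisol arm and -0.35 (adjusted p = 0.0674) in the control arm, with 8 of 8 fetuses under the mean of the younger group. Without control 140 d replicate 1, the lowest fetus, the control arm value was -0.12.

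BAD, the member that ties growth factor signals to BCL-XL through its phosphorylation, stood at 0.27, 0.49 and 0.69 in the cortisol 140 d group, 0.36, 0.63 and 0.83 in the control 140 d group, 0.47, 0.63 and 0.98 in the cortisol 130 d group and 0.22, 0.58 and 0.75 in the control 130 d group. All groups overlapped. The age difference was -0.22 ± 0.10 in the cortisol arm (adjusted p = 0.157) and 0.07 ± 0.10 in the control arm (adjusted p = 0.664). The other BAD probe gave -0.13 and 0.04, and without control 140 d replicate 1 the control arm value was 0.04.

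The death receptors did not pass the test with age. FAS had levels of -4.72, -3.85 and -2.70 in the cortisol 140 d group, -5.16, -3.57 and -1.90 in the control 140 d group, -5.35, -4.50 and -3.86 in the cortisol 130 d group and -4.53, -3.75 and -3.33 in the control 130 d group. Its SD between fetuses was 1.05 in the control 140 d group, the widest spread of the 8 members in any group. The age difference was 0.74 ± 0.41 in the cortisol arm (adjusted p = 0.242) and 0.38 ± 0.40 in the control arm (adjusted p = 0.536). The other FAS probe gave 0.27 ± 0.56 (adjusted p = 0.803) and 0.25 ± 0.55 (adjusted p = 0.787). Without control 140 d replicate 1, which held the highest FAS, the control arm value was 0.16. TNFRSF1A had levels of -3.86, -3.50 and -3.03 in the cortisol 140 d group, -4.68, -3.67 and -2.69 in the control 140 d group, -3.71, -3.41 and -3.35 in the cortisol 130 d group and -3.50, -3.36 and -3.07 in the control 130 d group. Its lowest and highest fetuses were both in the control 140 d group. The age difference was -0.04 ± 0.19 in the cortisol arm (adjusted p = 0.913) and -0.38 ± 0.18 in the control arm (adjusted p = 0.139). Without control 140 d replicate 3, the highest fetus, the control arm value was -0.53 and passed the test (adjusted p = 0.0181). Without control 140 d replicate 1, the lowest fetus, it was -0.24 (adjusted p = 0.283). Without cortisol 140 d replicate 4 the cortisol arm value was -0.12.

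The order of the group means can be read off these values. For ENDOG it was control 140 d (2.33 ± 0.19, SD), cortisol 140 d (2.07 ± 0.40), cortisol 130 d (1.50 ± 0.08) and control 130 d (1.40 ± 0.25), and for BCL2L1 it was cortisol 140 d (-2.70 ± 0.28), control 140 d (-2.77 ± 0.29), control 130 d (-3.51 ± 0.46) and cortisol 130 d (-3.65 ± 0.31). In both genes the 2 groups of 1 age lay within their spread of each other. For BCL2, BAX, BAD and TNFRSF1A, the means of neighbouring groups in the order differed by less than the larger SD of the pair. MCL1 ran from cortisol 140 d (-0.40 ± 0.37) and control 140 d (-0.55 ± 0.17) down to cortisol 130 d (-0.82 ± 0.16) and control 130 d (-0.85 ± 0.14), with a gap beyond the SD between the ages. For FAS, control 140 d (-3.45 ± 1.05), cortisol 140 d (-3.82 ± 0.76) and control 130 d (-3.83 ± 0.43) lay within their spread, and cortisol 130 d (-4.56 ± 0.60) lay lower by more than its SD.

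**Figure D2:**
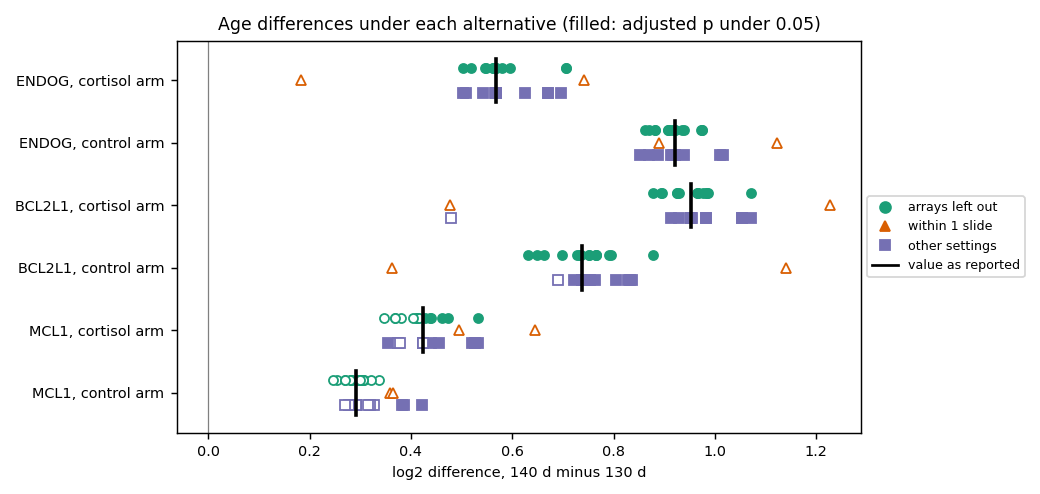
Log2 differences, 140 d minus 130 d, of ENDOG, BCL2L1 and MCL1 in each arm. The black line is the value as reported, green circles leave out arrays, orange triangles are fits within 1 slide, purple squares are other settings, and open symbols did not pass the adjusted test. All values lie above 0, and every fit within 1 slide is open.

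With 2 arrays a group, the fits within 1 slide could call few probes of the whole array. Within slides 2 and 3, ENDOG differed by 0.74 and 0.18 in the cortisol arm and by 0.89 and 1.12 in the control arm. BCL2L1 differed by 1.23 and 0.48 in the cortisol arm and by 0.36 and 1.14 in the control arm. No other slide held more than 1 array of both ages in an arm. Slide 1 held only 1 cortisol 140 d array, and slide 5 only 3 control 140 d arrays and 1 cortisol 140 d array. Slide and age were therefore partly joined, and the main fit had no slide term. The slide 3 value of ENDOG in the cortisol arm includes replicate 4.

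Cortisol given to the ewe moved no member past the test at either age. At 140 d, 0 of 8 members passed, and 0 of 8 reached an unadjusted p under 0.05, against 0% of the 12778 tested probes called by limma, 727 of which had an unadjusted p under 0.05. At 130 d, 0 of 8 passed and 0 of 8 reached an unadjusted p under 0.05, against 0% of probes called and 455 with an unadjusted p under 0.05. The median difference over the members was 0.02 at each age, beside -0.04 over all probes at 140 d and 0.01 at 130 d.

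**Figure D3:**
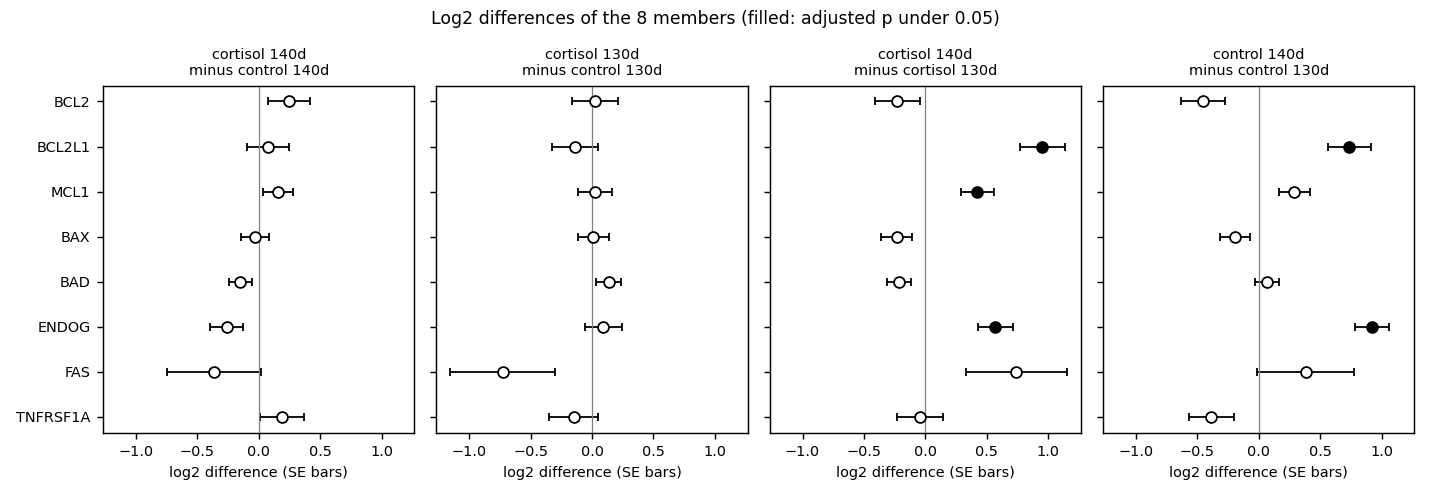
Log2 differences of the 8 members, with SE bars, in 4 panels: cortisol against control at 140 d, cortisol against control at 130 d, 140 d against 130 d in the cortisol arm and 140 d against 130 d in the control arm. Filled points passed the adjusted test; they are 3 in the cortisol arm, 2 in the control arm and 0 in the panels of cortisol against control.

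At 140 d the cortisol minus control differences of the pro-survival members were 0.25 ± 0.17 for BCL2, 0.16 ± 0.12 for MCL1 and 0.07 ± 0.17 for BCL2L1 (adjusted p = 0.808, 0.808 and 0.933). Those of the pro-death members were -0.26 ± 0.13 for ENDOG, -0.15 ± 0.09 for BAD and -0.03 ± 0.12 for BAX (adjusted p = 0.808, 0.808 and 0.955). None of these 6 values passed the test, so their split by role is a description. Without cortisol 140 d replicate 4 and control 140 d replicate 1, BCL2 differed by 0.03, ENDOG by -0.08 and BAX by -0.08. FAS differed by -0.37 ± 0.38 and TNFRSF1A by 0.19 ± 0.18, which became -0.14 and -0.03 without those arrays. The other FAS probe gave -0.54 ± 0.53.

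At 130 d the pro-survival members differed by 0.02 ± 0.19 (BCL2), 0.02 ± 0.14 (MCL1) and -0.14 ± 0.19 (BCL2L1), and the pro-death members by 0.13 ± 0.10 (BAD), 0.09 ± 0.15 (ENDOG) and 0.01 ± 0.13 (BAX). FAS differed by -0.73 ± 0.43, with 6 of 6 cortisol 130 d fetuses under the control 130 d mean, and TNFRSF1A by -0.15 ± 0.20, also with 6 of 6. The other FAS probe gave -0.56 ± 0.59, with 4 of 6. All 8 adjusted p-values were 1.00, and the sign of FAS turned to 0.08 with the normexp correction. No member separated the cortisol from the control fetuses at either age. Of all tested probes, 0.0157% did so at 140 d and 0.446% at 130 d. In the age comparisons 1 member did so in each arm, BCL2L1 in the cortisol arm, where 4.7% of probes did, and ENDOG in the control arm, where 5.72% did.

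Whether cortisol acted differently at 140 d than at 130 d was tested as an interaction, which 0 of 8 members passed, against 0% of probes called by limma and 743 with an unadjusted p under 0.05. It was -0.28 ± 0.14 for BAD (adjusted p = 0.855) and -0.35 ± 0.20 for ENDOG (adjusted p = 0.948), the members with the smallest p. Without cortisol 140 d replicate 4 the ENDOG value was -0.21. Therefore the smaller rise of ENDOG in the cortisol arm is not shown to differ from that in the control arm.

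The log2 difference of BAX and BCL2 on the same array is a common summary of the balance between a pore former and its inhibitor, and only its change between groups can be read, since the probes differ in brightness. It averaged -2.67 ± 0.57 in the cortisol 140 d group, -2.39 ± 0.22 in the control 140 d group, -2.67 ± 0.20 in the cortisol 130 d group and -2.66 ± 0.17 in the control 130 d group (SD). The cortisol 140 d fetuses ranged from -3.77 to -1.92 and spanned the control 140 d range of -2.69 to -2.04. Replicate 4 was the lowest, and without it the cortisol 140 d mean was -2.49. No test was made of this quantity.

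Within groups, some members varied together from fetus to fetus. All 28 pairs were correlated over the 27 fetuses as deviations from the group means, with 100000 permutations within groups and adjustment over the 28 pairs. Every value shares the scaling of its array. The share of other gene pairs on the array that reach such correlations was not computed. The pairs below are therefore not shown to be particular to these genes. BAX and FAS ran against each other, with Pearson's r = -0.638 (permutation p = 0.00056, adjusted p = 0.0157) and Spearman's rho = -0.641 (permutation p = 0.00067, adjusted p = 0.0186). Without the 2 fetuses farthest from the median of BAX, r was -0.465 (permutation p = 0.00998), and without cortisol 140 d replicate 4 and control 140 d replicate 1 it was -0.555. Within slides 2, 3 and 4, r was -0.774 (n = 8), -0.737 (n = 8) and -0.671 (n = 6).

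**Figure D4:**
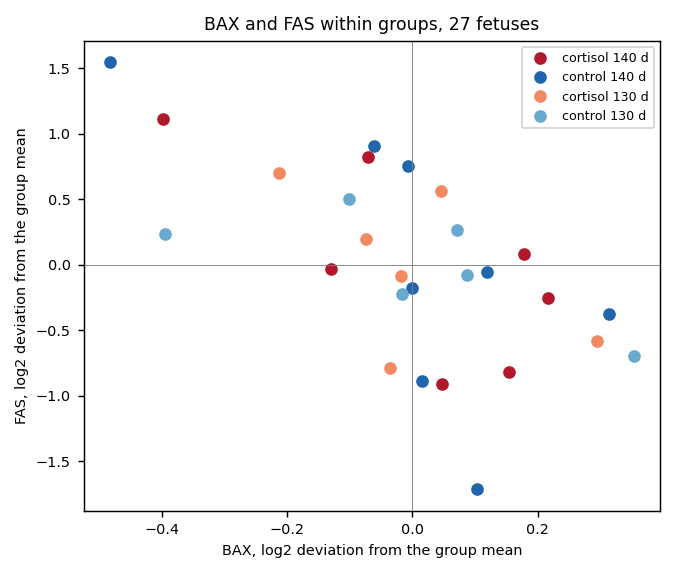
Deviations of BAX (x axis) and FAS (y axis) from the group mean on the log2 scale, 1 point per fetus, coloured by group in the order cortisol 140 d, control 140 d, cortisol 130 d and control 130 d. Fetuses with high FAS for their group tend to have low BAX, with r = -0.638 over 27 fetuses.

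BCL2L1 and BAD also ran against each other, with r = -0.586 (permutation, adjusted p = 0.0359) and rho = -0.541 (permutation, adjusted p = 0.0687), and r was -0.440 (permutation p = 0.0174) without the 2 fetuses farthest in BCL2L1. ENDOG and TNFRSF1A ran against each other too, with r = -0.486 (permutation, adjusted p = 0.0487) and rho = -0.628 (permutation, adjusted p = 0.0186). Without the 2 fetuses farthest in ENDOG r was -0.399 (permutation p = 0.0727), and within slides 2, 3 and 4 it was -0.497, -0.318 and -0.434. The other 2 pairs that passed with Pearson's r, like BCL2L1 with BAD, did not pass with Spearman's rho. For all 5 pairs, the permutation p-values without 2 fetuses are not adjusted over the 28 pairs, so they do not say whether a pair still passed. BCL2 with ENDOG went to -0.362 without the 2 fetuses farthest in BCL2 (permutation p = 0.0975). With all fetuses it was -0.697 (permutation, adjusted p = 0.0359, rho = -0.299 with adjusted p = 0.456). BCL2 with TNFRSF1A went to 0.348 without the same 2 fetuses (permutation p = 0.106). With all fetuses it was 0.443 (permutation, adjusted p = 0.0487, rho = 0.360 with adjusted p = 0.424). Without cortisol 140 d replicate 4 and control 140 d replicate 1, r was -0.315 for ENDOG with TNFRSF1A and 0.228 for BCL2 with TNFRSF1A. Without the same arrays it was -0.442 for BCL2 with ENDOG and -0.589 for BCL2L1 with BAD.

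The other named genes whose levels followed each member most closely were ranked by Pearson's r over the 27 arrays among 699 candidates reported here, as a description. ENDOG was closest to NDUFA12 (r = 0.932) and GATD3 (0.931), and BCL2L1 to LPL (0.875) and PYGL (0.858). As deviations from the group means these values were 0.840 and 0.788 for ENDOG, and 0.666 and 0.608 for BCL2L1. BAX was closest to ASPM (0.803) and DNMT1 (0.785), BCL2 to NOS3 (0.780) and ANXA2 (0.752), and TNFRSF1A to ERBB2 (0.719) and PABPC1 (0.685). MCL1 was closest to CEBPB (0.697) and FGFR2 (0.692). BAD reached 0.614 with KRT27 and 0.537 with SLC17A5, and FAS 0.566 with DERL1 and 0.561 with PLIN1. As deviations, in the same order of genes, the values were 0.762 and 0.728 for BAX and 0.713 and 0.648 for BCL2. They were 0.749 and 0.677 for TNFRSF1A and 0.499 and 0.616 for MCL1. For BAD they were 0.482 and 0.692, and for FAS 0.474 and 0.377. NDUFA12 encodes an accessory subunit of respiratory complex I, LPL the lipase that frees fatty acids from lipoproteins, PYGL a glycogen phosphorylase, DNMT1 the maintenance DNA methyltransferase, ASPM a spindle protein and NOS3 the endothelial nitric oxide synthase.

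Of 75 other apoptosis genes considered here, 5 were measured by probes that could be named, with 9 probes. The rest may be on the array under probes without a name. They were the pore former BAK1, the chaperone HSPA5, the ligand TNF, the receptor CD40 and the adaptor TRAF3. With age 0 of 5 rose and 3 fell in the cortisol arm, with a median of -0.69, against 4.94% of tested probes higher and 8.52% lower. Among control fetuses 0 rose and 4 fell with age, with a median of -0.75, against 9.77% higher and 9.35% lower. Cortisol moved 0 of 5 past the test at either age, with 1 of 5 at an unadjusted p under 0.05 at 140 d and 0 of 5 at 130 d.

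TNF, the ligand of the receptor that TNFRSF1A encodes, stood at -6.16, -5.49 and -4.07 in the cortisol 140 d group, -5.74, -5.54 and -3.80 in the control 140 d group, -4.75, -4.20 and -3.38 in the cortisol 130 d group and -4.61, -4.15 and -2.73 in the control 130 d group. It was lower with age in most fetuses, and was not well above background on 2 of 7 cortisol 140 d and 1 of 8 control 140 d arrays. The differences were -1.33 ± 0.36 in the cortisol arm (limma adjusted p = 0.0163) and -1.50 ± 0.35 in the control arm (limma adjusted p = 0.00501). Without control 140 d replicate 1, the highest of its group, the control arm value was -1.71. With the normexp correction, which added 50 to every intensity, they were -0.56 and -0.32, and neither passed. The part of the added 50 in this was not tested.

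CD40, a TNF receptor family member without a death domain, had levels of -4.28, -3.33 and -2.85 in the cortisol 140 d group, -4.03, -3.18 and -2.59 in the control 140 d group, -2.91, -2.42 and -2.17 in the cortisol 130 d group and -3.46, -2.02 and -1.51 in the control 130 d group. It fell by 0.93 in the cortisol arm (SE 0.28, limma adjusted p = 0.0262) and by 1.05 in the control arm (SE 0.27, limma adjusted p = 0.00859). The cortisol arm call was lost without cortisol 130 d replicate 1 or 5 or cortisol 140 d replicate 3 or 6, at -0.90 to -0.79, and with quantile normalization, at -0.81 (adjusted p = 0.0516). Both calls were lost with the normexp correction, at -0.61 and -0.57.

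TRAF3, an adaptor of CD40, had levels of -5.30, -4.90 and -4.52 in the cortisol 140 d group, -6.03, -5.17 and -4.98 in the control 140 d group, -4.72, -4.46 and -4.33 in the cortisol 130 d group and -4.85, -4.50 and -4.14 in the control 130 d group. All control 140 d fetuses lay under all control 130 d fetuses. The difference was -0.39 ± 0.15 in the cortisol arm (adjusted p = 0.0786). There it passed with the other TRAF3 probe (-0.59, adjusted p = 0.0341), the mean of both probes (-0.49, adjusted p = 0.0325), array quality weights (-0.40, adjusted p = 0.0201) and without cortisol 140 d replicate 4 and control 140 d replicate 1 (-0.39, adjusted p = 0.0257). The other TRAF3 probe was well above background on only 6 of 7 cortisol 140 d and 6 of 8 control 140 d arrays. In the control arm the shown TRAF3 probe gave -0.75 ± 0.14 (limma adjusted p = 0.00109), and -0.64 without control 140 d replicate 1. With the normexp correction it gave 0.07 (adjusted p = 0.909), and the part of the 50 added to every intensity was not tested.

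**Figure D5:**
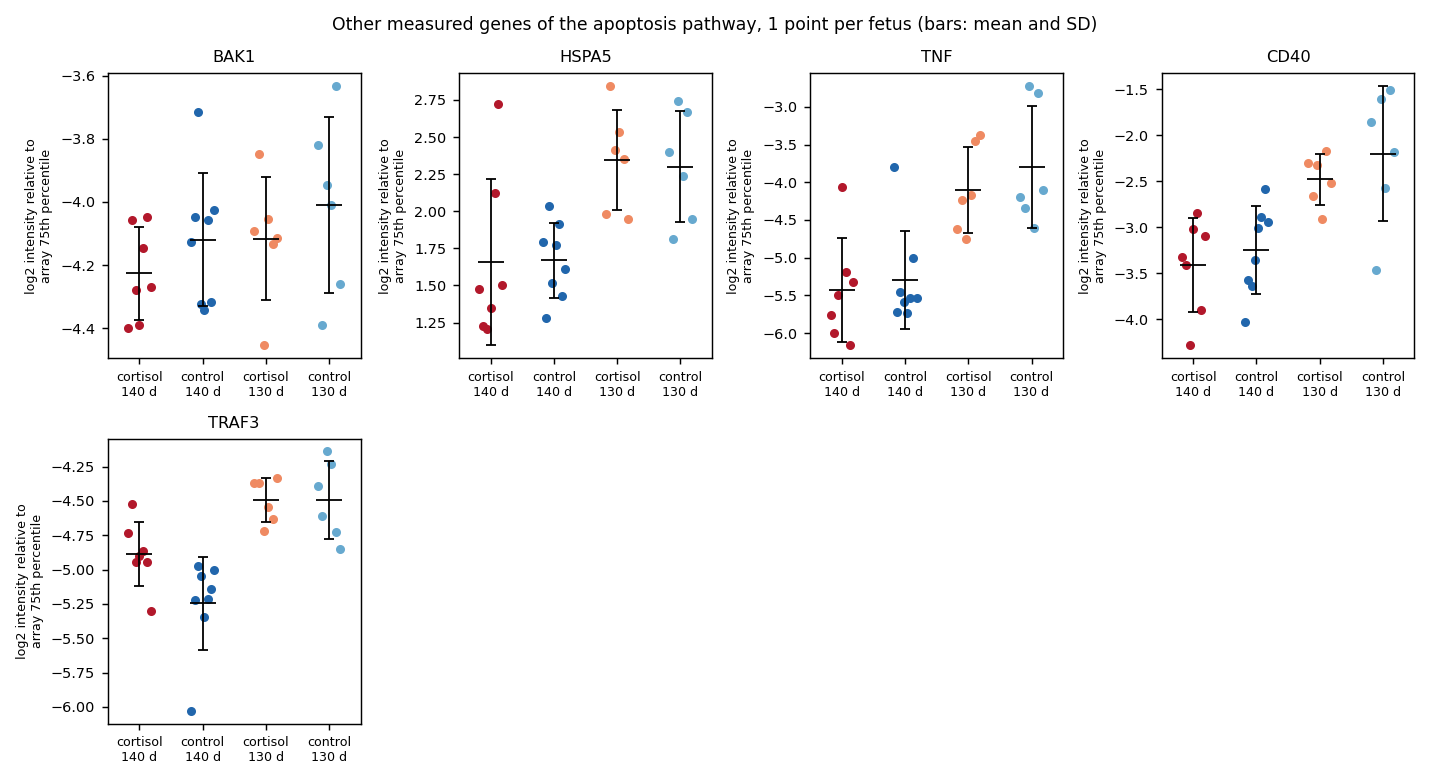
Log2 intensity relative to the array's 75th percentile for the 5 other measured apoptosis genes, 1 point per fetus, with group means and SDs as bars, for the cortisol 140 d, control 140 d, cortisol 130 d and control 130 d groups from left to right. The 8 control 140 d points of TRAF3 lie below all 6 control 130 d points.

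HSPA5, the main chaperone of the endoplasmic reticulum, fell by 0.69 in the cortisol arm (SE 0.21, limma adjusted p = 0.0325) and by 0.63 in the control arm (SE 0.21, limma adjusted p = 0.0342). The cortisol arm call was lost without cortisol 130 d replicate 2, 3, 4 or 5 or cortisol 140 d replicate 1, 2, 3 or 7, at -0.69 to -0.59. The control arm call was lost without control 130 d replicate 1, 3, 4 or 5 or control 140 d replicate 2, 4 or 7, at -0.64 to -0.54. Both calls were also lost with median scaling, the authors' deposited values, slides as a fixed block and the normexp correction. The cortisol arm call was lost too with only the cortisol groups in the fit. Of the alternatives run, 16 of 29 lost the call in the cortisol arm and 14 of 30 in the control arm.

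BAK1 differed by -0.11 ± 0.12 in each arm (adjusted p = 0.598 in the cortisol arm and 0.546 in the control arm), and its other probe by -0.05 and -0.02.

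Some markers of other cell types passed the test with age. Of all tested probes, 13.5% passed in the cortisol arm (4.94% higher, 8.52% lower). In the control arm 19.1% did (9.77% higher, 9.35% lower). Of 12 immune markers listed, 6 were tested, of which 0 passed in the cortisol arm while 3 fell in the control arm, ITGB2 by 1.02, FCER1G by 1.16 and LYZ by 1.41 on the log2 scale. Their summed level, in multiples of the 75th percentile, ran from 0.734 to 2.36 in the cortisol 140 d group, 0.609 to 0.962 in the control 140 d group, 0.763 to 1.41 in the cortisol 130 d group and 0.948 to 2.83 in the control 130 d group. ITGAM, a myeloid marker, was well above background on 9 of 27 arrays. Both red blood cell markers found among the named probes, HBB and AHSP, fell in the control arm, and 0 of 2 passed in the cortisol arm. Of 4 genes listed as adipocyte markers, 2 rose in the cortisol arm, PLIN1 and LPL, and 3 rose in the control arm. FABP4 passed in neither arm (-0.29 in the cortisol arm, 0.22 in the control arm) and was well above background on 17 of 27 arrays. MB rose by 0.48 in the control arm (limma adjusted p = 0.0282) and differed by 0.19 in the cortisol arm (adjusted p = 0.462). Among 5 fibroblast markers 1 fell in the control arm, and among 4 endothelial markers 1 rose in the cortisol arm. The summed level ran from 2.49 to 6.67 over all arrays for endothelial markers, 80.6 to 337 for fibroblast markers, 1.58 to 56.4 for red blood cell markers and 2.40 to 8.42 for adipocyte markers. Their part in the age differences of the apoptosis genes was not tested.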

How the data were processed

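Total RNA of fetal heart septum was labelled with Cy3 and hybridised to 1-colour Agilent arrays on 5 slides, and the submitters' processing notes name Agilent Feature Extraction, version 10.1.1.1, as the software that read the spots. The deposited scanner files hold background-subtracted intensity per spot, made by that software per the file headers. The authors' deposited value table is log2 intensity less 1 constant per array (residual SD at most 2.06e-06, column medians 0.0864 to 0.121). Its scale and direction are thereby known, but no label gives how the constant was chosen, and the table served as an alternative.

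From the scanner files, spots flagged as outliers were dropped, spots of a probe averaged, and the array's 75th percentile subtracted from log2 intensity. Testing was limited to probes that exceeded background well on 6 or more arrays (12778, of which 83 lack a value on some array). Of these, 1076 probes (8.42%) had a gene name, for 710 genes. The 4 group means were fitted in 1 model with limma 3.58.1 (R 4.3.3), with no covariates, 2-sided, and the procedure was tested on simulated data. The rule for genes named was the 8 members, the measured genes of the listed apoptosis genes, and the 2 genes closest to each member. Members and lists were chosen with earlier results of these data known. Alternatives covered background correction (normexp with 50 added to every intensity), scaling, filters, slides, weights, replicate block, the fitted samples, and each array left out. One alternative, leaving out 2 arrays together, was chosen after seeing the data. Probe positions were not used here, since the files name no genome build. Some named genes are not reported here and were left out of the list of apoptosis genes and of the ranking by likeness.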

Additional observations from a re-analysis of the deposited data

Results flagged for a closer look

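In 5 of 56 combinations of a measured quantity and a group, 1 fetus lay far from the rest of its group. Chance alone gives about 1 in 20, but all 5 came from 2 arrays and are not independent. Of the 5 combinations, 2 were cortisol 140 d replicate 4, which had the highest BCL2 of its group (0.731, next -0.171) and the lowest ENDOG (1.24, next 1.99). The other 3 were control 140 d replicate 1, with the lowest BAX (-3.36, next -2.94), the lowest TRAF3 (-6.03, next -5.34) and the highest TNF (-3.80, next -5.01). The same array held the highest FAS (-1.90) and the lowest TNFRSF1A (-4.68) of its group. Values are log2 intensity relative to the array's 75th percentile, and the causes were not tested.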

How the results depend on the processing

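For 13 genes in the comparisons reported (44 results), 1195 of 1329 alternative values kept their direction and side of the threshold, 71 lost a call, 12 gained one and 51 turned sign, 14 of these with 1 array left out. Of the sign changes, 1 was in a called result, TRAF3 in the control arm. Cortisol moved 0 probes past the test at either age under every alternative run but 1, within slide 3 at 130 d (1 probe). The age counts of 1720 (cortisol arm) and 2443 (control arm) became 339 and 536 with normexp, whose median over all probes moved to 0.20 at 130 d for cortisol against control and 0.15 in the control arm. Array quality weights gave 2933 in the cortisol arm, and leaving out cortisol 140 d replicate 4 and control 140 d replicate 1 gave 2897. Within slide 2 the counts were 3 and 0, and within slide 3 they were 0 and 0, with fewer samples. Leaving out each array gave 1287 to 2419 and 1649 to 2823, and 0 to 2 for the difference of cortisol effects. Of the calls, 631 of 1720 and 1248 of 2443 were higher at 140 d, against 1168 of 1833 and 1998 of 2831 with median scaling and 1170 of 1824 and 2031 of 2848 with the authors' table.

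Signs turned as follows, the causes untested. For cortisol against control at 130 d, normexp gave 0.33 for BCL2L1, -0.055 for ENDOG, 0.084 for FAS and 0.29 for TNFRSF1A. Array weights gave -0.0083 for BCL2 and -0.037 for BAX, and the mean of a gene's probes gave -0.0021 for MCL1 and -0.056 for BAX. Slide 2 gave -0.26 for BCL2 and -0.022 for BAX, slide 3 -0.029 for BCL2, 0.18 for BCL2L1, -0.20 for MCL1 and -0.090 for BAX, and slide 4 -0.018 for ENDOG. At 140 d, BAX went to 0.066 with normexp and 0.013 as the mean of probes, TNFRSF1A to -0.030 without the 2 arrays (-0.030 to 0.34 over all fits that left out arrays), and slide 3 gave -0.48 for BCL2L1, 0.12 for BAD, 0.46 for FAS and -0.28 for TNFRSF1A. In the cortisol arm, TNFRSF1A became 0.058 with median scaling and with the authors' table, 0.087 with quantile normalization and 0.081 within slide 2, BAK1 0.021 with quantile normalization, and slide 3 gave 0.23 for BCL2, 0.033 for BAD and -0.032 for FAS. In the control arm, normexp gave 0.027 for TNFRSF1A, 0.23 for BAK1 and 0.070 for TRAF3, slide 2 gave 0.017 for BAK1, and slide 3 -0.049 for BAD, -1.30 for FAS and 0.062 for TNFRSF1A. The BAD difference of effects was 0.082 within slide 3. With 1 array left out, values ran at 130 d from -0.057 to 0.15 for BCL2, -0.26 to 0.00084 for BCL2L1, -0.026 to 0.068 for MCL1 and -0.068 to 0.082 for BAX, at 140 d from -0.10 to 0.035 for BAX and -0.00018 to 0.15 for BCL2L1, and in the cortisol arm from -0.12 to 0.015 for TNFRSF1A. BAX minus BCL2 moved with normexp to -1.85 (cortisol 140 d), -1.70 (control 140 d), -1.82 (cortisol 130 d) and -2.11 (control 130 d).

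Deviations of same-numbered arrays correlated between -0.166 and 0.362, not above 0.1 for every pair in any comparison, so numbers were not taken as pairs. With the replicate block, 1493 and 2345 probes passed in the cortisol and control arms and 0 for cortisol at either age. HSPA5 lost its call in both arms, and no other call of a named gene changed. Signal over background limits the dimmer genes: TNF was well above background on 5 of 7 cortisol 140 d and 7 of 8 control 140 d arrays.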
